A study of Arabidopsis thaliana with 42 samples.

Results

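Edi-0 is a natural accession of Arabidopsis thaliana from Edinburgh and one of the 19 founders of the MAGIC lines, a population bred by intercrossing natural accessions to map traits. Its 2 seedling libraries, out of 42 in the series, were set against the 36 biological libraries of the other 18 accessions, namely Wu-0, Oy-0, Hi-0, Po-0, Ws-0, Kn-0, Bur-0, Mt-0, Can-0, Sf-2, Ler-0, Zu-0, Col-0, Tsu-0, Ct-1, Wil-2, Rsch-4 and No-0. The members were taken by their accession label, so no measured value chose them, and the remaining 4 libraries, labelled as technical replicates of Col-0, were left out.

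All plants shared 1 regime per the labels: 5 days of cold at 4 C for the seeds, then soil at 20 C with 16 h of light and 8 h of dark until an age of about 11 days. No treatment or transgene is labelled in any group. The 2 libraries of each accession are labelled as biological replicates. How many seedlings went into a library, at what hour they were harvested and whether the accessions were handled together are details that none of the sources used here gave. A difference of Edi-0 from other accessions can therefore not be told apart from a difference in how and when its seedlings were collected. Replicate 1 of Edi-0 was run on lane 3 and replicate 2 on lane 4 of run 38, together with Hi-0, Kn-0 and Ler-0, which are called its lane mates below.

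Accessions of this species differ in inherited gene copies and alleles, and some of those differences are well known. FLC, a repressor of flowering that winter cold silences, is strong in late-flowering accessions and weak in early ones. Aliphatic glucosinolates, defence compounds of the cabbage family, differ with the presence of a few side-chain enzymes. Other genes answer within minutes to touch, wounding or a shortage of sugar, so their level also depends on what a plant met shortly before harvest.

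Values below are RPKM, reads scaled to the exon length of each gene and to the library's depth. Differences are Edi-0 minus the mean of the other 18 accessions on the log2(RPKM + 1) scale, which understates the change of low genes, and adjusted p-values are from limma with the Benjamini-Hochberg method at a threshold of 0.05. The p-values measure only the spread between libraries of an accession. Estimated depth was 3220000 and 4270000 reads in Edi-0, against 1240000 to 4920000 in the others. A gene of 1500 bases with 3 reads is then at 0.621 and 0.468 RPKM in Edi-0, and at 0.407 to 1.61 RPKM in the others, which covers counting error only. In Edi-0, 17422 and 17434 nuclear genes reached 1 RPKM, against 16921 to 17660 elsewhere. The summed level of 24 nuclear photosynthesis genes was 90939 and 94523 RPKM in Edi-0 and 76948 to 106770 RPKM in the others, so the labelled green tissue was present in each. The 5 seed markers summed to 1.05 and 0 RPKM and the 3 flower markers to 0 and 0.895 RPKM in Edi-0, against 0 to 24.1 and 0 to 2.76 RPKM in the other libraries. The Edi-0 libraries correlated with each other at 0.982 (Pearson, across 20101 genes that are not independent), while Edi-0 correlated with other accessions at 0.942 (Ws-0) to 0.957 (Col-0).

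Of 20108 nuclear genes tested, 2060 (10.2%) differed between Edi-0 and the mean of the other 18 accessions, 1250 (6.22%) being higher and 810 (4.03%) lower in Edi-0. The median difference of all genes was -0.0027. A stricter set held genes that passed the test, had a log2 difference of 1 or more and had both Edi-0 libraries outside the range of all 36 others: 160 genes (0.796%) lay above and 37 (0.184%) below, 197 (0.98%) in all. By range alone, 274 genes (1.36%) lay above all 36 others in both Edi-0 libraries and 103 (0.512%) below. Most of the called genes thus stayed inside the range of the other accessions, 987 of the higher and 709 of the lower ones. The 160 genes were spread over the chromosomes, with 40, 30, 31, 24 and 35 on chromosomes 1 to 5, and the 37 genes likewise with 10, 3, 8, 7 and 9. With only the mean of each accession as a replicate, so that variation among the 18 accessions made up the error, 37 genes (0.184%) were higher and 12 (0.0597%) lower in Edi-0.

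**Figure D1:**
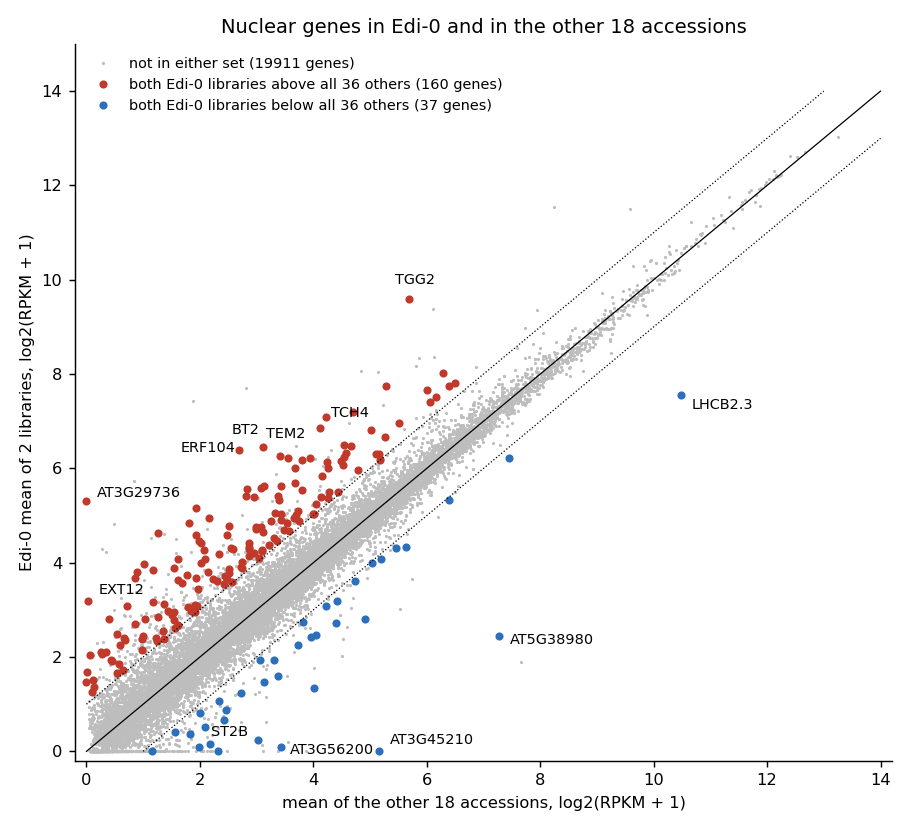
Each point is 1 of 20108 nuclear genes, with the mean of the 2 Edi-0 libraries on the y axis and the mean of the other 18 accessions on the x axis, both as log2(RPKM + 1). Red points are the 160 genes with both Edi-0 libraries above all 36 others and blue points the 37 genes below them; the solid line marks equal levels and the dotted lines a log2 difference of 1.

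Among the genes that stood above all other accessions, 15 of 160 belonged to a list of early touch and wound genes, which encode regulators, calcium sensors and other proteins. AP2/ERF transcription factors by product name made up 7 of the 160 genes (4.38%) and 0.363% of all genes tested. Proteins with calcium-binding EF hands or likeness to calmodulin made up 8 (5.0%) against 0.487%. Of the 37 genes below all others, 1 (2.7%) was an AP2/ERF factor and 0 were of the calcium class. These name classes, among several looked at, were not planned before results were seen. They share members, such as ERF104 and ERF105, with the touch and wound list and are no separate evidence. That list, of 32 genes known to be induced within minutes by touch or wounding, was drawn up after these results had been seen, so its counts describe Edi-0 and are no independent evidence. Of its 31 members tested, 28 (90.3%) were higher in Edi-0, 0 were lower and 17 lay above all 36 other libraries, with a median difference of 2.05. The shares of all genes tested were 6.22% higher, 4.03% lower and 1.36% above all 36 others. In whole seedlings, more cells of a type and more RNA per cell cannot be told apart. Summed over the 32 genes, the level was 1306 and 976 RPKM in Edi-0, against 151 to 666 RPKM (median 246) in the others. Edi-0 had the highest mean of 19 accessions in 24 of the 31 genes, and both libraries exceeded every other library in the sum.

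TCH4, a cell wall xyloglucan endotransglucosylase named for its induction by touch, was at 149 and 88.1 RPKM in the Edi-0 libraries, against 5.88, 16.2 and 47.8 RPKM as the lowest, median and highest of the other 36. Both Edi-0 libraries were far above the rest, and the groups did not overlap (difference 2.74, SE 0.25, limma adjusted p = 3.23e-08). The calmodulin-like calcium sensor TCH2 was at 129 and 95.7 RPKM in Edi-0 and at 18.95, 32.8 and 54.1 RPKM in the others (difference 1.79), again without overlap, although 18% of its exon sequence in 36-base words also occurs in another gene. CML38, another calmodulin-like sensor, stood at 18.7 and 9.38 RPKM in Edi-0 and at 0, 1.096 and 6.19 RPKM elsewhere (difference 2.66, limma adjusted p = 5.99e-05). TCH3, a further sensor, was at 84.7 and 62.9 RPKM in Edi-0 and at 2.50, 13.6 and 83.9 RPKM elsewhere (difference 2.17), so that its groups overlapped, and 16.4% of its words are shared.

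The list also holds transcription factors, of which 4 are given here. ERF104, an ethylene response factor, was at 102 and 73.6 RPKM in Edi-0 and at 1.42, 7.54 and 31.9 RPKM in the other libraries (difference 3.34, SE 0.56, limma adjusted p = 1.89e-04). TEM2, also called RAV2, which represses flowering and is itself induced by touch, was at 87.2 and 65.5 RPKM in Edi-0 and at 3.24, 9.74 and 41.6 RPKM elsewhere (difference 2.85, SE 0.30, limma adjusted p = 3.12e-07). Its relative RAV1 was at 82.7 and 65.3 RPKM in Edi-0, against 5.67 to 38.4 RPKM. WRKY33, a regulator of defence against necrotrophic fungi, stood at 52.2 and 32.2 RPKM in Edi-0, against 2.13, 6.13 and 28.1 RPKM (difference 2.44, SE 0.31, limma adjusted p = 4.15e-06). All 4 factors had both Edi-0 libraries above the highest other library.

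Signalling and RNA decay genes followed the same order. The CCCH zinc finger gene SZF1 reached 47.7 and 36.3 RPKM in Edi-0, against 2.41 to 20.2 RPKM. ACS6, an enzyme of ethylene synthesis, reached 57.2 and 41.0 RPKM in Edi-0, against 3.35 to 25.5 RPKM. The mitochondrial dicarboxylate carrier gene DIC2 reached 56.3 and 39.1 RPKM in Edi-0, against 2.03 to 33.1 RPKM in the others. These genes did not overlap between the groups, nor did the deadenylase gene CAF1a at 47.8 and 44.2 RPKM in Edi-0 against 0.370 to 43.3 RPKM. The kinase MPK3, which carries wound and pathogen signals, was at 78.0 and 67.0 RPKM in Edi-0 and at 25.9 to 55.9 RPKM in the others (difference 0.97). Its neighbour in the cascade, the kinase kinase MKK9, was at 18.15 and 18.9 RPKM in Edi-0, against 1.47 to 13.5 RPKM.

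Members that did not pass the test were CAF1b at 2.99 and 4.47 RPKM in Edi-0 against 0.997 to 5.62 RPKM, CML37 at 1.18 and 0.592 RPKM against 0 to 2.46 RPKM, and WRKY46 at 1.27 and 1.54 RPKM against 0.813 to 7.48 RPKM. WRKY46 had the opposite sign (difference -0.64, limma adjusted p = 0.17). CML39 did not pass the filter on low values. ERF105 stood at 31.7 and 24.5 RPKM in Edi-0 against 0.445 to 14.1 RPKM, but 100% of its exon words occur in the overlapping gene AT5G51180, so the reads of the pair cannot be told apart. In all, 6 of the 31 members shared over 5% of their words with another gene.

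**Figure D2:**
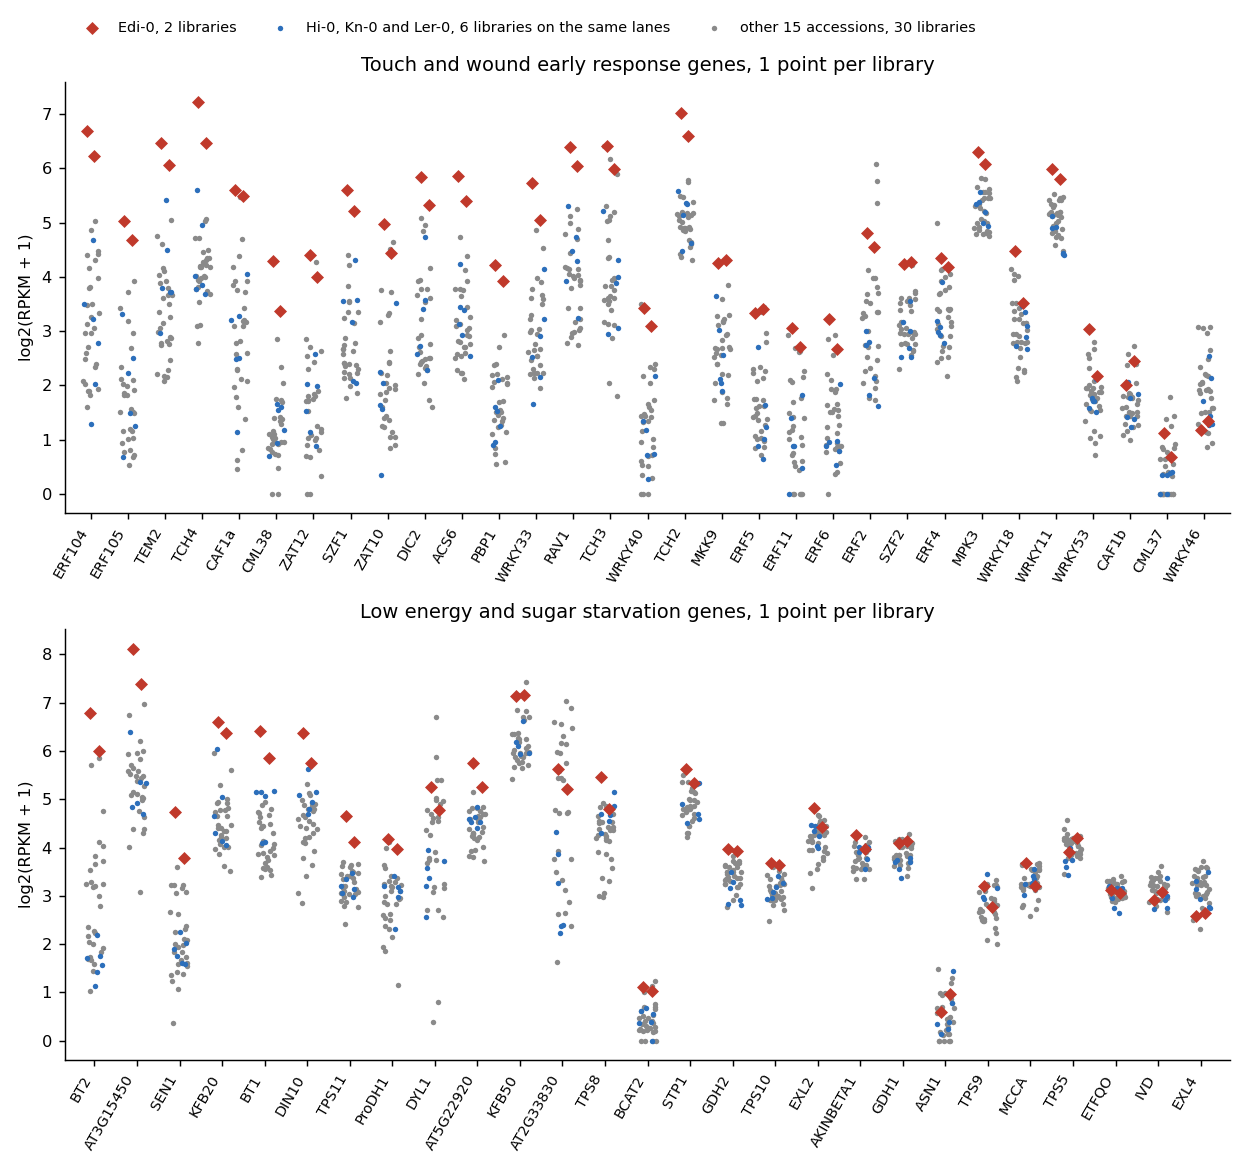
Each point is 1 library, on the log2(RPKM + 1) scale, for the 31 tested genes of the touch and wound list (above) and the 27 of the low energy list (below), ordered by difference. Red diamonds are the 2 Edi-0 libraries, blue points the 6 of the lane mates and grey points the other 30; Both Edi-0 libraries lie above every other library for 17 touch and wound genes and 10 low energy genes.

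Promoters of 4 such genes are shown because each holds the W-box TTGACC, the site that WRKY factors are known to bind, and that of DIC2 because it holds CGCGTT, known as the rapid stress response element and searched for after results had been seen. They are the 250 bases before the annotated gene start in TAIR10.1 (RefSeq), 5′ to 3′ on the strand of the gene, with the motif in capitals; GGTCAA is the W-box read on the other strand. They lie at chr1:28768139-28768388 (minus strand) for CML38, chr2:16107985-16108234 (plus) for WRKY33, chr3:20775970-20776219 (plus) for SZF1, chr1:25879905-25880154 (plus) for TEM2 and chr4:12686209-12686458 (plus) for DIC2.
CML38: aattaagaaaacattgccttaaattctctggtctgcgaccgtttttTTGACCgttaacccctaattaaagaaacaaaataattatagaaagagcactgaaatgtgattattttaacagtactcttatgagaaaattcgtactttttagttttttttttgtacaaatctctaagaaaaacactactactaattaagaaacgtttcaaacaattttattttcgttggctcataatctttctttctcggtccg
WRKY33: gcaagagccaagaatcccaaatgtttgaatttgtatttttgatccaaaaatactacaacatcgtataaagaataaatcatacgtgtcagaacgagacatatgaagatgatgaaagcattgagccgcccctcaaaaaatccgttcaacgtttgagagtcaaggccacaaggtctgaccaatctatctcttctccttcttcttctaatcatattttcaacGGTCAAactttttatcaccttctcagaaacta
SZF1: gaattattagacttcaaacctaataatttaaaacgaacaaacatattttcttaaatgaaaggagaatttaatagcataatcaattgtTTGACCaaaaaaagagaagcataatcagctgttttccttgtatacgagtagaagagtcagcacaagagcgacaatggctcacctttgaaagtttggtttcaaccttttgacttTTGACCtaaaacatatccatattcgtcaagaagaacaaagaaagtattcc
TEM2: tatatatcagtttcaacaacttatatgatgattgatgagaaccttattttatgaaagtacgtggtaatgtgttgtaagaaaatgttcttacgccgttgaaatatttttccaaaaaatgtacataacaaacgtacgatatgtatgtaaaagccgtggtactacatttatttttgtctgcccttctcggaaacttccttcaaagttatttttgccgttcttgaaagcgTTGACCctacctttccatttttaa
DIC2: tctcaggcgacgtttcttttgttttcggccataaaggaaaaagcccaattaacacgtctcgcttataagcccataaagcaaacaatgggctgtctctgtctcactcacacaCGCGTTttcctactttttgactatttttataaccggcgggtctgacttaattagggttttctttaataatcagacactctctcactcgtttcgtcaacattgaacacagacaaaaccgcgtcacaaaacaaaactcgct
Counting both strands, TTGACC occurred in 8 of the 31 touch and wound promoters (25.8%), in 25 of the 160 promoters of genes above all others (15.6%) and in 11.9% of all 20058 promoters of that length. It occurred in 4 of the 37 promoters of genes below all others (10.8%) and in 1 of the 27 low energy promoters (3.7%). CGCGTT occurred in 2 of the 31 (6.45%), in 8 of the 160 (5.0%) and in 2.76% of all. In the 37 genes below all others it was about as frequent as in the 160, at 2 (5.41%). The evening element AAAATATCT, a site of clock factors, was in 9 of the 160 (5.62%), in 1 of the 31 (3.23%) and in 2.54% of all. The CCA1 binding site AAAAATCT was in 14 of the 160 (8.75%), in 1 of the 31 (3.23%) and in 6.8% of all. The G-box CACGTG was in 11 of the 160 (6.88%) and in 7.27% of all. A match of letters does not show that a factor binds there, and these sequences are those of Col-0, not of Edi-0.

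The touch and wound genes also varied within accessions. Replicate 1 of Edi-0 exceeded replicate 2 in 26 of the 31 genes, with a median ratio of 1.33, against a ratio of 1.02 over 16790 genes at 1 RPKM or more in both. By mean and SD (n = 2), the summed level was 1141 ± 234 RPKM in Edi-0, 569 ± 138 in Bur-0, 406 ± 231 in No-0, 403 ± 128 in Kn-0 and lower in all others. The 2 libraries of No-0 lay far apart, at 242 and 570 RPKM. The highest of the other accessions was Bur-0 for 16 of the 31 genes, No-0 for 9 and Kn-0 for 4. Against the lane mates, where 1581 of 20234 genes (7.81%) were higher in Edi-0 and 1125 (5.56%) lower, 27 of the 31 were higher. Without Edi-0 replicate 1, 15 of the 31 passed the test, and 20 passed without replicate 2, when 471 and 587 genes in all were higher. With accession means as replicates, 5 of the 31 passed.

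**Figure D3:**
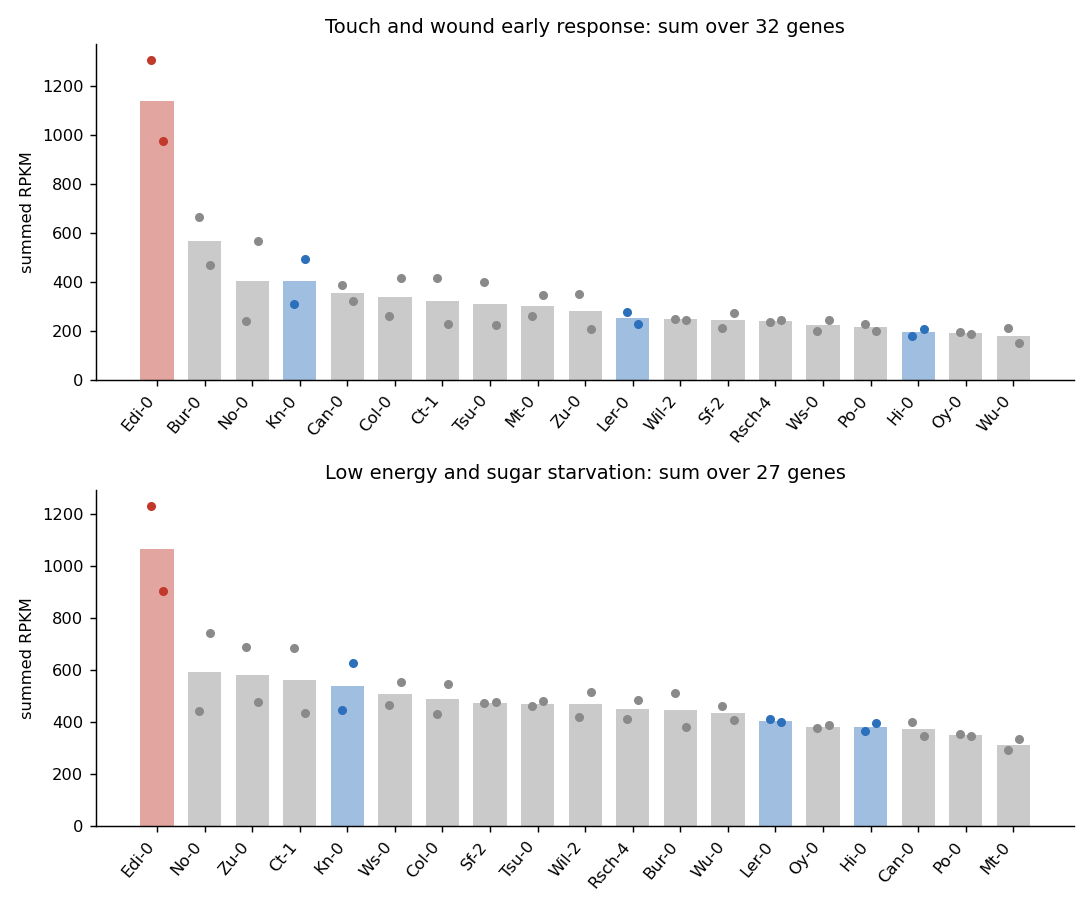
Bars are the mean of the 2 libraries of an accession and points the libraries, as summed RPKM over the 32 touch and wound genes (above) and 27 low energy genes (below); Edi-0 is red, its lane mates blue, the other accessions grey. Both Edi-0 libraries exceed all others in both sums, 1306 and 976 RPKM above and 1228 and 903 RPKM below, and Edi-0 replicate 1 is the higher one each time.

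A second group was genes known to rise when sugar or energy is short, again a list drawn up after the results had been seen. Over all genes tested, 6.22% were higher in Edi-0, 4.03% lower and 1.36% above all other libraries. Of 27 members of this list tested, 14 (51.9%) were higher in Edi-0, 1 was lower and 10 lay above all other libraries, with a median difference of 0.64. The sum was 1228 and 903 RPKM in Edi-0 and 292 to 742 RPKM (median 439.8) in the others, with No-0 next at 592 ± 212 RPKM and Zu-0 at 582 ± 148 RPKM (SD, n = 2). Replicate 1 exceeded replicate 2 here too, in 21 of 27 genes.

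BT2, a BTB and TAZ domain protein tied to nutrient and hormone responses, was at 109 and 63.4 RPKM in Edi-0 and at 1.05, 3.76 and 57.3 RPKM as the lowest, median and highest elsewhere (difference 3.70, SE 0.54, limma adjusted p = 3.04e-05). The groups did not overlap, but the highest other library, No-0 replicate 2 at 57.3 RPKM, stood beside a No-0 replicate 1 at 2.98 RPKM. BT1 was at 83.8 and 56.9 RPKM in Edi-0, against 9.42 to 35.03 RPKM (difference 1.89, limma adjusted p = 2.29e-10), and BT5 at 36.7 and 24.2 RPKM, against 0.578 to 16.5 RPKM (difference 2.78). Genes of this domain family by product name were 3 of the 160 above all others, out of 5 tested.

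AT3G15450, a gene known to rise under low sugar, was at 277 and 165 RPKM in Edi-0 and at 7.47, 39.6 and 125 RPKM elsewhere (difference 2.46, SE 0.35, limma adjusted p = 2.23e-05). The dark-inducible DIN10, of the raffinose synthase family, stood at 82.1 and 52.8 RPKM in Edi-0, against 6.24 to 48.7 RPKM. SEN1, which is induced by darkness and senescence, stood at 25.6 and 12.8 RPKM in Edi-0, against 0.281 to 11.1 RPKM, and its adjusted p became 0.0507 without Edi-0 replicate 1. All 3 lay above the other libraries, as did KFB20, an F-box protein, at 95.7 and 82.4 RPKM in Edi-0 against 10.4 to 65.1 RPKM. TPS11, of the trehalose phosphate synthase family, was at 24.2 and 16.3 RPKM in Edi-0, against 4.31 to 11.9 RPKM.

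Other members of this group did not separate Edi-0. ASN1, an asparagine synthetase that is a classical gene of dark response, was at 0.502 and 0.953 RPKM in Edi-0 and at 0 to 1.81 RPKM elsewhere (limma adjusted p = 0.506). DYL1 was at 37.1 and 26.2 RPKM in Edi-0, against 0.300 to 103 RPKM (limma adjusted p = 0.0573). EXL4 was lower, at 5.02 and 5.26 RPKM in Edi-0 against 3.99 to 12.2 RPKM (difference -0.56). Against the lane mates 16 of the 27 were higher, where 7.81% of all genes were. Without Edi-0 replicate 1, 8 of the 27 passed, without replicate 2, 13 passed, and with accession means as replicates, 0 passed.

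Together the touch and low energy lists held 23 of the 160 genes above all others, other lists held 11, some of them in both kinds of list, and 129 were in no list. PHI-1, a phosphate-responsive family protein, was at 33.5 and 17.0 RPKM in Edi-0, against 0.238 to 7.90 RPKM (difference 3.37). CYP707A3, which breaks down abscisic acid, was at 19.3 and 11.1 RPKM in Edi-0, against 0 to 3.61 RPKM (difference 2.95, limma adjusted p = 1.21e-07). EXT12, a cell wall extensin, was at 6.80 and 9.58 RPKM in Edi-0 and at 0.510 RPKM or less in all others (difference 3.15, given with no test). It is 1 of 9 among the 160 genes that passed the filter on low values, 1 RPKM in at least 2 libraries, through Edi-0 alone and so had to differ. PHI-1 and CYP707A3 were higher in Edi-0 than in each of the 18 accessions taken singly, as 43 genes (0.214%) were, 8 of which passed the filter only through Edi-0. PHE1, a MADS-box factor best known from seeds, was at 12.95 and 10.6 RPKM in Edi-0, against 0 to 5.49 RPKM, with 9.28% of its words shared. CNGC11, an ion channel at 33.0 and 36.4 RPKM in Edi-0 against 0.276 to 14.3 RPKM, shared 41.9% of its words with other genes, and AT1G58983 all of them.

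AT3G29736, an uncharacterised single-exon gene on chromosome 3 (chr3:11573558-11575204, plus strand), was singled out after its values were seen. It stood at 44.5 and 33.5 RPKM in the Edi-0 libraries and was listed at 0 in all 36 others (difference 5.31, given with no test). It passed the filter on low values, 1 RPKM in at least 2 libraries, through the Edi-0 libraries alone, and none of its 36-base words occurs in another annotated gene.

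Among the 37 genes below all others, several were nearly silent in Edi-0. AT3G45210, a protein with a domain of unknown function on chromosome 3 (chr3:16556684-16558169, minus strand), was listed at 0 in both Edi-0 libraries and stood at 13.1, 38.05 and 65.1 RPKM as the lowest, median and highest elsewhere (difference -5.15, SE 0.17, limma adjusted p = 3.71e-17). AT5G38980, uncharacterised and likewise singled out after its values were seen, was at 7.50 and 2.44 RPKM in Edi-0, against 99.7, 152 and 252 RPKM (difference -4.83). The amino acid transporter gene AT3G56200 was at 0 and 0.145 RPKM in Edi-0, against 5.01 to 25.3 RPKM (difference -3.34, limma adjusted p = 3.68e-14). No library of any other accession came near the Edi-0 values of these 3 genes.

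Several of the other low genes encode enzymes. CYP71A25, a cytochrome P450, was listed at 0 in both Edi-0 libraries, against 1.33 to 10.4 RPKM, and the sulfotransferase ST2B was at 0.405 and 0 RPKM, against 1.63 to 15.1 RPKM. AT5G43450, a dioxygenase, was at 1.36 and 1.71 RPKM in Edi-0, against 4.78 to 30.6 RPKM. The methyl esterase MES18 was at 5.81 and 6.18 RPKM in Edi-0, against 15.3 to 73.1 RPKM, with 17.2% of its words shared. These 4 genes, with AT3G45210 and AT3G56200, were lower in Edi-0 than in each of the 18 accessions, as 19 genes (0.0945%) were. LHCB2.3, a light-harvesting protein of photosystem II, was at 206 and 171 RPKM in Edi-0, against 568, 1512 and 2831 RPKM (difference -2.92). Of its words, 40.4% also occur in another gene, and its exons overlap AT3G27700 by 595 bases. For a low value in an accession other than Col-0, it was not tested whether reads that differ from the reference sequence failed to align.

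Flowering genes placed Edi-0 with the accessions of high FLC. FLC (chr5:3173382-3179448, minus strand) was at 84.1 and 92.5 RPKM in Edi-0 and at 0.565, 8.61 and 144 RPKM as the lowest, median and highest elsewhere (difference 2.79, SE 0.18, limma adjusted p = 4.80e-11). Edi-0 had the 4th highest mean at 88.3 ± 5.92 RPKM, behind Sf-2 at 141 ± 3.39, Zu-0 at 116 ± 15.9 and Can-0 at 114 ± 3.195 RPKM (SD, n = 2). Ws-0 followed at 82.7 ± 9.75 and Kn-0 at 29.7 ± 0.670 RPKM, and the others were at 21.3 RPKM or less. Edi-0 and its neighbour Ws-0 did not differ beyond their spread. With accessions taken singly, FLC was called higher in Edi-0 than in 14 and lower than in 0. It was thus not called lower than in Sf-2, Zu-0 or Can-0 either. FLC overlaps an antisense gene, AT5G01675, with 81.6% of its words, and no use of strand was given, so the reads of both are counted alike. FRI, the activator of FLC, was at 4.72 and 4.62 RPKM in Edi-0, against 0.213 to 6.03 RPKM (difference 0.88, limma adjusted p = 0.00488), a call lost without either Edi-0 library (0.112 and 0.0873).

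SOC1, a promoter of flowering that FLC is known to repress, was at 1.41 and 1.06 RPKM in Edi-0 and at 0, 11.8 and 31.8 RPKM elsewhere (difference -2.02, SE 0.16, limma adjusted p = 3.03e-09). Its mean of 1.23 ± 0.245 RPKM was above those of Ws-0, Zu-0, Can-0 and Sf-2, at 0.893 to 0.317 RPKM, and the highest mean was in the lane mate Ler-0, at 30.1 ± 2.46 RPKM (SD, n = 2). The 5 accessions with the highest FLC thus had the 5 lowest SOC1 means. SEP3, a floral organ factor, was at 0.268 and 0.611 RPKM in Edi-0, against 0 to 28.6 RPKM (difference -1.71). Of 13 promoters of flowering tested, 0 were higher and 3 lower in Edi-0, and of 15 repressors 5 (33.3%) were higher and 1 lower. Among all genes tested, 6.22% were higher and 4.03% lower.

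The summed level of the repressors was 431 and 419 RPKM in Edi-0 and 181 to 373 RPKM in the others. In Sf-2, next at 329 and 373 RPKM, TEM2 was only at 5.70 and 9.23 RPKM and TEM1 at 6.16 and 8.37 RPKM. The higher sum in Edi-0 was not computed without TEM1 and TEM2, the latter also on the touch and wound list. TEM2, described above, contributed to this, as did TEM1 at 53.3 and 38.7 RPKM in Edi-0 against 6.16 to 44.7 RPKM, a call lost without Edi-0 replicate 1 (limma adjusted p = 0.167). MAF5, a relative of FLC, was at 8.08 and 10.9 RPKM in Edi-0, against 0, 0.570 and 10.1 RPKM, the last in Can-0 (difference 2.50, SE 0.26, limma adjusted p = 1.83e-07). The repressor SVP was lower, at 28.2 and 29.1 RPKM in Edi-0 against 20.5 to 53.4 RPKM (difference -0.38). Over the 19 accession means, the profiles most like that of FLC were those of TRS120 (Pearson r = 0.810), NIP1;2 (0.802) and AT1G01300 (0.784), given as a description.

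**Figure D4:**
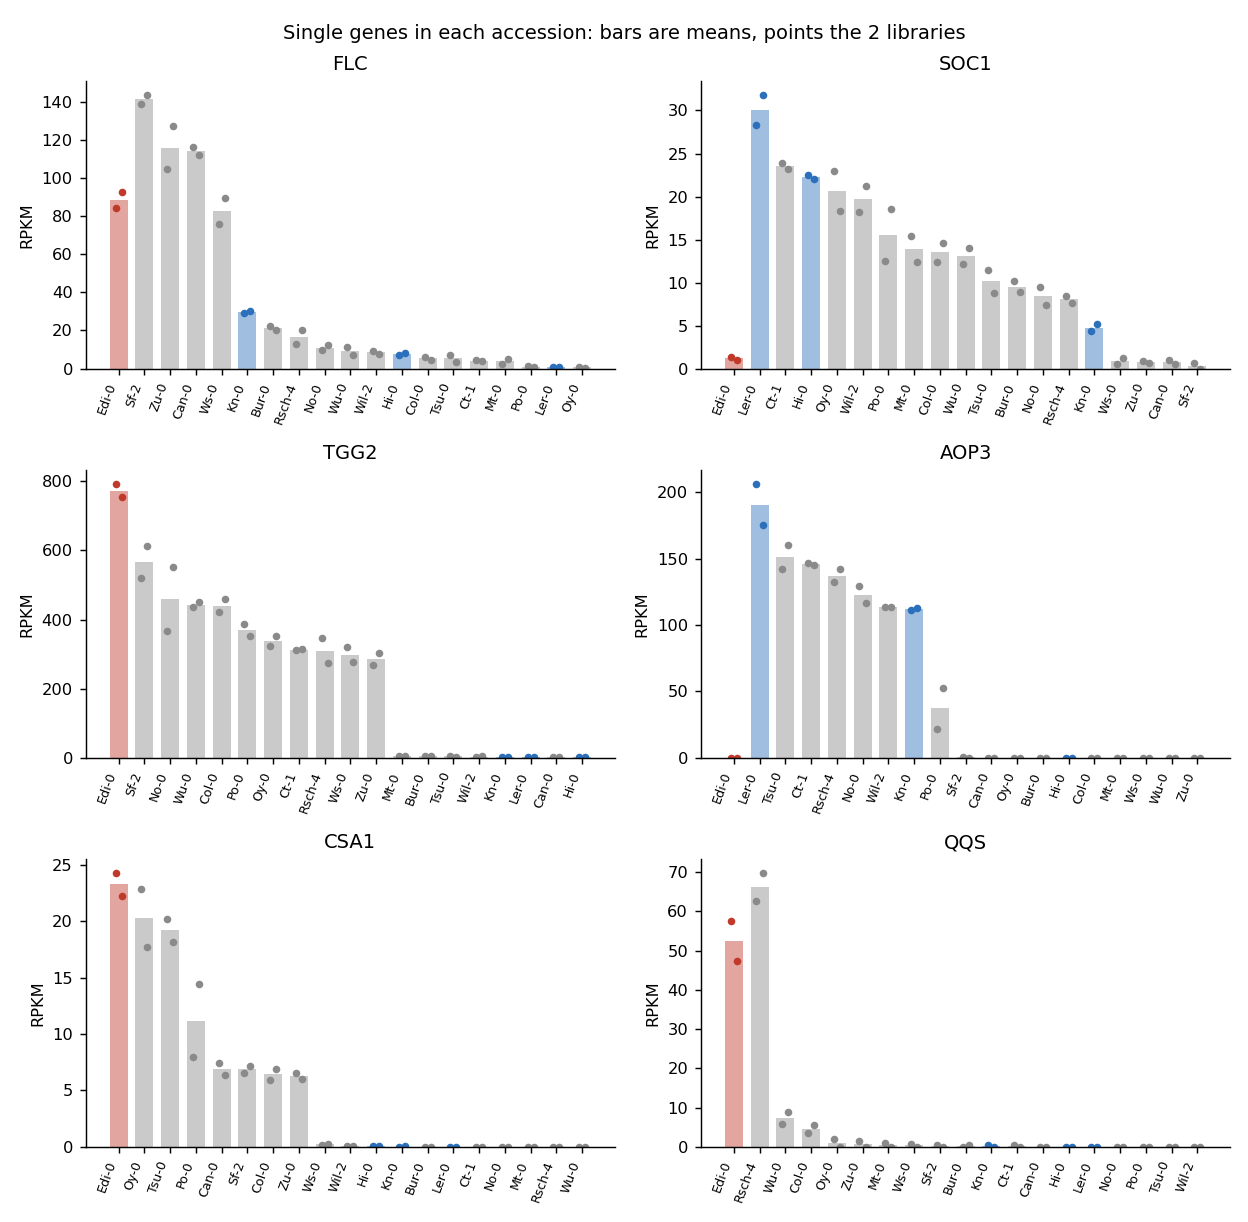
Bars are mean RPKM and points the 2 libraries of each accession for FLC, SOC1, TGG2, AOP3, CSA1 and QQS; Edi-0 (red) is drawn first and the others follow in order of their mean, with the lane mates Hi-0, Kn-0 and Ler-0 in blue. Edi-0 is 1 of 5 accessions with mean FLC at 82.7 RPKM or more and mean SOC1 at 1.23 RPKM or less, has the highest TGG2 and CSA1, has AOP3 near 0 and shares high QQS with Rsch-4.

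Glucosinolate genes showed which side-chain and breakdown enzymes Edi-0 expressed. TGG2, a myrosinase that cleaves glucosinolates (chr5:9072708-9075777, plus strand), was at 793 and 754 RPKM in Edi-0 and at 1.48, 275 and 613 RPKM elsewhere (difference 3.91, SE 0.16, limma adjusted p = 5.56e-15). The mean of 774 ± 27.2 RPKM in Edi-0 was followed by 567 ± 65.4 in Sf-2 (SD, n = 2), while 8 accessions, all 3 lane mates among them, stood at 4.98 RPKM or less. TGG1, the other leaf myrosinase, was at 993 and 934 RPKM in Edi-0, against 795 to 1539.5 RPKM (limma adjusted p = 0.181).

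Both AOP genes encode dioxygenases that modify the same side chain. AOP2, which makes alkenyl glucosinolates, was at 299 and 349 RPKM in Edi-0, against 0.781, 182 and 668 RPKM, the 9th highest mean of the 19. AOP3, which makes hydroxyalkyl ones, was at 0.193 and 0 RPKM in Edi-0, against 0 to 206 RPKM, and was lower in Edi-0 than in 8 accessions. GSL-OH, which hydroxylates the alkenyl product, was at 265 and 267 RPKM in Edi-0, behind Zu-0 at 1223 ± 46.3 and Sf-2 at 961 ± 5.88 RPKM and ahead of Ct-1 at 239 ± 5.88 RPKM (SD, n = 2). Edi-0 thus had high AOP2 and GSL-OH beside AOP3 near 0.

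ESP, which directs breakdown towards nitriles, was at 2697 and 3156 RPKM in Edi-0, against 21.2, 2204 and 6653 RPKM (difference 1.93), and ESM1, which acts against it, was at 314 and 339.8 RPKM, against 11.6, 62.2 and 1108 RPKM (difference 2.23, limma adjusted p = 6.71e-16). Of 13 breakdown genes tested 4 were higher and 0 lower, the 4th being PEN2, a call lost without either Edi-0 library. For comparison with each of these glucosinolate lists, 6.22% of all genes tested were higher in Edi-0 and 4.03% lower. Of 32 aliphatic synthesis genes 3 (9.38%) were higher and 11 lower in Edi-0. The lower ones included the regulator MYB28 at 38.8 and 41.4 RPKM in Edi-0 against 32.8 to 90.0 RPKM (difference -0.39) and FMOGS-OX1 at 6.30 and 8.27 RPKM against 8.12 to 48.0 RPKM (difference -1.63). MYB29, a second regulator, was higher, at 27.1 and 35.7 RPKM in Edi-0 against 0 to 58.3 RPKM (difference 0.81). Of 12 indole synthesis genes 3 were higher and 2 lower. MYB51, a regulator of that branch, was at 9.39 and 5.53 RPKM in Edi-0 against 0.733 to 6.34 RPKM (difference 1.31). MYB34, another MYB gene of the indole list, went the other way. It was at 10.3 and 12.6 RPKM in Edi-0 against 11.1 to 32.6 RPKM (difference -0.65, limma adjusted p = 6.06e-04).

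Immune receptors of the NLR family, which recognise pathogen effectors and differ widely among accessions, were changed in both directions. Of 97 NLR genes tested by product name 25 (25.8%) were higher and 12 lower in Edi-0. From a list of named immune receptors, 30 were tested, of which 12 (40%) were higher and 3 lower. The product-name list was added after results had been seen. Both lists share members, such as CSA1 and WRR4, so their counts are not independent. The shares over all genes tested were 6.22% higher and 4.03% lower. CSA1 (chr5:5908834-5913317, minus strand) was at 24.3 and 22.3 RPKM in Edi-0 and at 0, 0.0699 and 22.9 RPKM elsewhere (difference 3.24, SE 0.14, limma adjusted p = 1.20e-14). Its mean of 23.3 ± 1.42 RPKM was followed by 20.3 ± 3.66 in Oy-0 and 19.2 ± 1.44 in Tsu-0 (SD, n = 2), the 2 accessions from which Edi-0 did not differ by the test, while 11 accessions were at 0.226 RPKM or less. CHS3, the partner gene that faces CSA1 on the chromosome (chr5:5916862-5923494, plus strand), was at 8.73 and 8.48 RPKM in Edi-0, against 0 to 12.2 RPKM, the 6th mean of 19.

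Helper and surface receptors were also higher. ADR1-L2, a helper NLR, was at 13.7 and 12.2 RPKM in Edi-0, against 3.48 to 10.5 RPKM (difference 0.80), and ADR1-L1 at 28.1 and 27.3 RPKM, against 5.34 to 24.9 RPKM, with 22.1% of its words shared. FLS2, the receptor of bacterial flagellin, was at 9.85 and 11.4 RPKM in Edi-0, against 1.51 to 9.83 RPKM (difference 1.11, limma adjusted p = 7.63e-05). RPP2A was at 12.3 and 12.01 RPKM in Edi-0, against 1.304 to 12.2 RPKM. All 3 genes named before RPP2A had both Edi-0 libraries above every other library.

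A cluster on chromosome 1 held neighbours of opposite direction. WRR4 (chr1:21167565-21173632, plus strand), which confers resistance to white rust, was at 0 and 0.131 RPKM in Edi-0, against 0.295, 3.28 and 5.46 RPKM (difference -1.89, limma adjusted p = 6.45e-08). The adjoining receptor gene AT1G56520 averaged 0 RPKM in Edi-0, against 1.41 RPKM over the other accessions (difference -1.16). Next to it AT1G56540 was at 4.72 and 4.56 RPKM in Edi-0, against 0 to 1.55 RPKM (difference 1.96, limma adjusted p = 1.51e-07). All 3 were outside the range of the 36 other libraries. Elsewhere, close neighbours in the set were both higher, such as ERF104 and the AP2/ERF gene AT5G61590 on chromosome 5, except UBQ11, which averaged 19.1 RPKM in Edi-0 against 55.8 RPKM, beside the wound-responsive AT4G05070, which averaged 259 RPKM against 84.3 RPKM.

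Of 26 salicylic acid genes 6 were higher and 1 lower in Edi-0, where 6.22% and 4.03% of all genes were, and against the lane mates 13 were higher and 0 lower, where 7.81% and 5.56% of all genes were. They had a summed level of 561 and 619 RPKM against 115 to 2282 RPKM, the 4th mean behind Bur-0, Mt-0 and Ct-1. WRKY70, a regulator of that pathway, was at 174 and 149.5 RPKM in Edi-0, against 9.71, 32.5 and 159.7 RPKM, the last in Bur-0 (difference 2.12, SE 0.22, limma adjusted p = 2.59e-07). ACD6, an ankyrin protein with known natural alleles, was lower, at 5.28 and 7.76 RPKM in Edi-0 against 0.280 to 197 RPKM (difference -1.57), but not against the lane mates (difference -0.59, limma adjusted p = 0.144). Of 23 jasmonate and ethylene defence genes 3 were higher and 0 lower, and each of the 3 lost its call without Edi-0 replicate 2, among them VSP2 at 88.4 and 175 RPKM.

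Senescence, sulfur and nitrogen genes are set against shares of 6.22% higher and 4.03% lower over all genes. Of 8 senescence genes 5 were higher and 0 lower (median difference 0.83), DIN10 and SEN1 of the low energy list among them, with NAP, a senescence regulator, at 6.77 and 4.47 RPKM in Edi-0 against 0 to 3.42 RPKM. Of 10 sulfur genes 4 were higher and 1 lower. APR3, a reductase of sulfate assimilation, was at 103 and 112 RPKM in Edi-0, against 37.5 to 94.6 RPKM (difference 0.75, limma adjusted p = 4.87e-06). Of 10 nitrogen genes 4 were higher and 0 lower. The glutamine synthetase GLN1;1 was at 119 and 119 RPKM in Edi-0, against 45.1 to 117 RPKM (difference 0.71, limma adjusted p = 1.74e-06). The nitrate reductase gene NIA1 was at 83.4 and 72.4 RPKM in Edi-0 against 15.8 to 86.1 RPKM. It differed from the 18 accessions (difference 1.01) but not from the lane mates (difference 0.39, limma adjusted p = 0.137). Nor did the called genes NIA2 (0.14, limma adjusted p = 0.584) and ATSDI1 of the sulfur list (0.70, limma adjusted p = 0.170) differ from the lane mates. Against these, 3 nitrogen and 5 sulfur genes were higher and 0 and 1 lower, where 7.81% and 5.56% of all genes were.

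Clock genes, whose levels swing over the day, depended on which accessions Edi-0 was compared with. Against the 18 accessions, 0 of 11 evening genes passed in either direction and 1 of 12 morning genes was higher. The exception, RVE1, at 7.76 and 4.83 RPKM against 0 to 11.5 RPKM, lost its call without Edi-0 replicate 1. Against the lane mates, 7 of the 11 evening genes were higher in Edi-0 and 4 of the 12 morning genes lower, where 7.81% of all genes were higher and 5.56% lower. PRR5, an evening repressor, was at 48.7 and 45.5 RPKM in Edi-0, against 5.02 to 73.5 RPKM in all others, with a difference of 0.69 from the 18 accessions (limma adjusted p = 0.151) and of 1.72 from the lane mates (limma adjusted p = 7.00e-04). Summed levels put Edi-0 9th of 19 for evening genes, at 207 ± 11.4 RPKM, and 8th for morning genes, at 277 ± 7.81 RPKM (SD, n = 2). The lane mates Ler-0 and Kn-0 had the highest morning sums, at 457.5 ± 10.3 and 437 ± 26.4 RPKM.

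**Figure D5:**
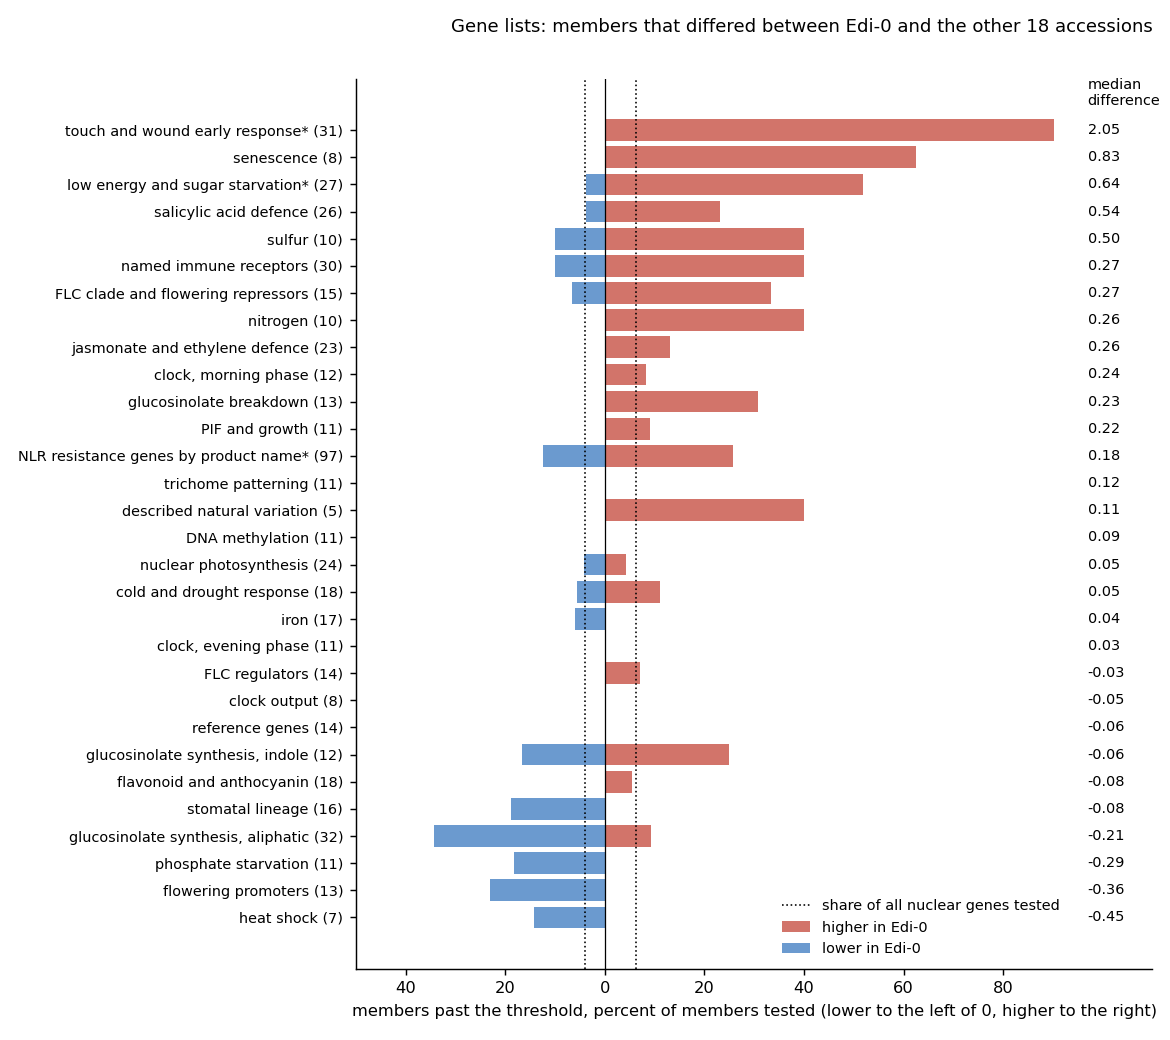
Bars give, for each gene list with 5 or more tested members (number in brackets), the percent of members past the threshold, higher in Edi-0 to the right of 0 and lower to the left; dotted lines mark the shares of all nuclear genes tested, 6.22% and 4.03%, and the column at the right the median log2 difference. Lists marked * were added after results were seen; the touch and wound list stands at 90.3% higher, and the reference genes have no member past the threshold.

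In each of the remaining lists at most 3 members passed. In some of these short lists that was still above the shares of all genes tested, 6.22% higher and 4.03% lower. By limma 0 of 14 reference genes, 0 of 11 DNA methylation genes, 0 of 11 trichome genes and 0 of 8 clock output genes passed in either direction. Of 16 stomatal genes 3 were lower, with POLAR, a protein of the dividing stomatal lineage, at 1.097 and 1.65 RPKM in Edi-0 against 3.42 to 9.93 RPKM (difference -1.48, limma adjusted p = 4.20e-05), though 19.3% of its words are shared. TMM and EPF2 had the lowest mean of the 19 accessions, but their calls were lost without either Edi-0 library. Of 24 photosynthesis genes 1 was higher and 1 lower, of 17 iron genes 0 were higher and 1 lower, namely the iron store FER4 at 19.9 and 17.7 RPKM in Edi-0 against 15.9 to 89.9 RPKM. Cold and drought genes gave 2 higher and 1 lower of 18, heat shock genes 0 and 1 of 7, phosphate starvation genes 0 and 2 of 11 (summed over 14 genes, 112.2 and 112.0 RPKM in Edi-0 against 119.5 to 198 RPKM), flavonoid genes 1 and 0 of 18, genes of PIF-driven growth 1 and 0 of 11, FLC regulators 1 and 0 of 14, and root markers 0 and 1 of 3.

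QQS, a gene of starch metabolism that is silenced to differing degrees in natural accessions, was at 57.6 and 47.5 RPKM in Edi-0 and listed at 0 in 22 of the other 36 libraries, with 69.8 RPKM as the highest (difference 4.90, SE 0.31, limma adjusted p = 2.67e-11). Its mean was 52.5 ± 7.15 RPKM in Edi-0 and 66.3 ± 5.02 RPKM in Rsch-4 (SD, n = 2), with Wu-0 next at 7.39 RPKM. Among 740 transposable elements tested apart, 18 (2.43%) were higher in Edi-0 and 1 (0.135%) lower. Of the 18, 9 passed the filter only through Edi-0, so the excess of higher elements is partly set by the filter, and those described next are given with no test. AT5TE45015 was at 3.35 and 5.05 RPKM in Edi-0 and listed at 0 in all other libraries. AT3TE48135 was at 9.93 and 5.28 RPKM in Edi-0 and at 0.697 RPKM or less elsewhere, while AT5TE39265 varied within Edi-0, at 6.32 and 29.3 RPKM against 0 to 4.91 RPKM.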

How the data were processed

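RNA was measured by sequencing polyA libraries, prepared per the labels' protocols by an adapted Illumina mRNA method. The authors deposited 1 RPKM value per gene and library, per the file headers, and the code -1, read here as missing, stands in place of some values. The submitters' processing notes name the builds TAIR 9 and TAIR 10. The aligner, its handling of sequence differences between accessions and the use of strand are not given in the sources used here.

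Nuclear genes at 1 RPKM or more in at least 2 of 38 libraries were tested with limma 3.58.1 (R 4.3.3) on log2(RPKM + 1), with 1 mean per accession and a trended prior. Of 20316 such genes, 208 lacked a value in some accession. Edi-0 was set against the mean of the 18 other accession means, and a gene was called at a Benjamini-Hochberg adjusted p of 0.05 over all 20108 genes. The values are not counts and whole reads could not be recovered from most of them, so no count test was run.

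Gene names, places and promoters come from the TAIR10.1 annotation, which matched 32835 of 33323 nuclear genes. Uncertain genes were those with over 5% of their 36-base exon words in another gene. The genes named were the 12 largest and 12 smallest differences of the outside set with a symbol or product name, up to 4 called members of each list, up to 6 absent genes, FLC, SOC1, TEM2, TGG2, CSA1, TMM and the 3 profiles most like FLC; all others named were chosen after their values were seen. Members and lists were chosen with earlier results of these data known. Alternatives changed the pseudocount, the filter, the scaling, the prior trend, the replicate block, the unit of replication and the libraries included.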

Additional observations from a re-analysis of the deposited data

How the results depend on the processing

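Edi-0 has 2 libraries, so the number of calls rests on both. With 1 library left out at a time, genes higher in Edi-0 numbered 471 to 1374 and lower ones 267 to 918, the least being without Edi-0 replicate 1 (471 and 267) against 587 and 358 without replicate 2. Likewise the genes above all others numbered 158 to 221 and those below 37 to 77, genes higher than in each accession 12 to 46 and lower 12 to 20, and genes higher than in the lane mates 724 to 1676 and lower 471 to 1239. The touch and wound list gave 15 to 28 higher genes and 17 to 24 above all others, the low energy list 8 to 17 higher, and transposable elements 16 to 27 higher and 1 to 2 lower. With accession means as replicates, the counts were 37 higher, 12 lower, 5 of the touch and wound list and 0 of the low energy list. A least difference of 2 left 41 genes above and 9 below. With a pseudocount of 0.1, 22 genes were higher than in each accession and 4 elements lower; with the replicate block set by lane, 27 genes were higher than in each accession; without a filter, 80 elements were higher. RD29A turned to 0.0018 against the lane mates (limma adjusted p = 1). Over all genes, same-numbered libraries of Edi-0 and its lane mates did not deviate together (correlations of -0.0335 to 0.0223). Such a correlation cannot exclude a shared replicate or lane effect on some of the genes. With the replicate block, 1228 genes were higher and 786 lower. With the block set by lane, 1020 were higher and 603 lower, 21 of the touch and wound list were higher and 7 named genes lost their call. Levels under about 0.621 RPKM in Edi-0 rest on 3 reads or fewer for a gene of 1500 bases.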

Other observations

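In Edi-0 alone, 17 nuclear genes carried the code for a missing value in both libraries, and 3 of them reached 1 RPKM in another accession. AT5G45469 stood at 0, 1.55 and 7.34 RPKM as the lowest, median and highest of the other libraries, AT1G63150, a tetratricopeptide repeat protein, at 0, 1.15 and 2.72 RPKM, and AT3G48237 at 0, 0 and 2.29 RPKM. What the code stands for is not given in the sources used here, so these genes were not read as silent in Edi-0. AT4TE50055 was the 1 element lower in Edi-0, listed at 0 in both Edi-0 libraries and at 0 to 123 RPKM elsewhere.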
